A study of Homo sapiens with 6 samples.

Results

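The 10 genes described here encode intermediate filament proteins and lamins: GFAP, VIM, NES, SYNM, DES, LMNA, LMNB1, NEFL, NEFM and INA. They were chosen by gene symbol, with earlier results of these data known, and all 10 had a row among the 30949 genes of the deposited table. RNA came from human astrocytes derived from WTC11, an established induced pluripotent stem cell line, of wild-type genotype, grown as floating aggregates inside alginate capsules in neural medium. For 48 hours 3 cultures received ITC, which combines C1q with the cytokines IL-1alpha and TNFalpha and is used to make astrocytes reactive, and 3 cultures received vehicle. The capsules were made in separate batches, each divided between the treatments, and all cultures come from 1 parental line. Poly-A selected RNA was sequenced in bulk, with total counts of 17808993 to 19327421 per ITC library and 17398921 to 29941685 per vehicle library.

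Intermediate filament proteins share a central rod that pairs into coiled coils and assembles into rope-like fibres. Vimentin and GFAP form the filaments of astrocytes, nestin and synemin join filaments built from vimentin, and the neurofilament proteins and alpha-internexin form those of axons. Lamins are the nuclear members and line the inner nuclear membrane. In the brain, more GFAP and vimentin is the usual mark of a reactive astrocyte, nestin marks neural progenitors and reactive astrocytes, and lamin B1 is known to be low in senescent human fibroblasts.

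The filament genes did not move as a group under ITC. VIM and LMNA were higher in ITC, by 1.42-fold and 1.55-fold. LMNB1, NEFL and SYNM were lower in ITC by more than 4-fold, NEFM was 2.75-fold lower and NES was 1.51-fold lower. GFAP and INA did not pass the test, and DES was too low to be tested. At an adjusted p of 0.05 (Benjamini-Hochberg), the quasi-likelihood test of edgeR called 7 of the 9 tested members, 2 higher and 5 lower in ITC, or 77.8% of them. The background was 39.4% of all 16756 tested genes, with 20.4% called higher and 19% called lower in ITC. Because the members were chosen with earlier results known, comparisons with all tested genes describe them and do not test them as a set. The number called in each direction depended on the scaling between libraries, which was TMM (trimmed mean of M-values) here. Upper quartile scaling called 1 member higher and 6 lower, against 2662 higher and 4059 lower of all genes. Library size alone called 0 members higher and 6 lower, against 2282 higher and 4804 lower of all genes. No member changed sign: with library size alone VIM (log2 change 0.28) and LMNA (0.39) stayed higher in ITC but were not called. Among called genes, 3 members (SYNM, NEFL and LMNB1) were at least 4-fold lower, against 4.29% of tested genes. The groups did not overlap in 7 of the 9 tested members, against a background of 50.1% of tested genes. The median log2 change was -0.59 over the tested members and -0.01 over all tested genes. The lowest count of a tested member in any library was 63, so none passed the filter on low counts through 1 group alone.

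**Figure D1:**
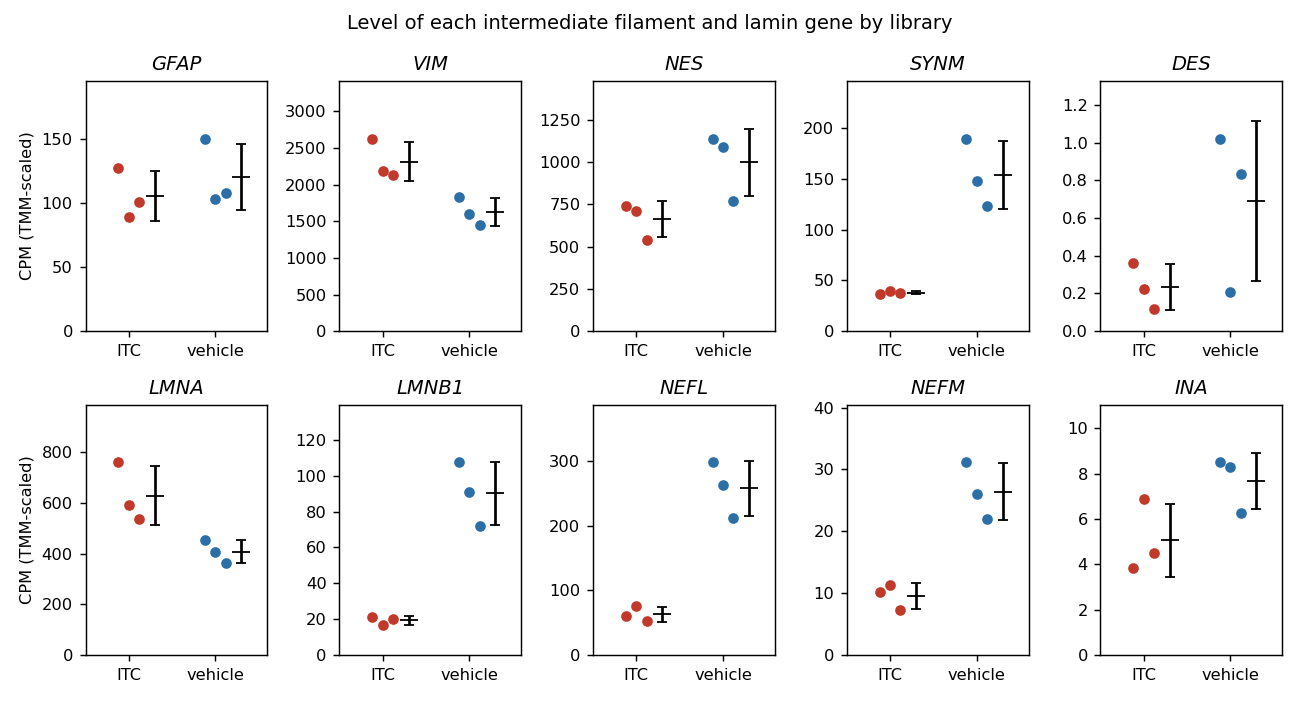
Level of each member in every library, in CPM, on an axis that starts at 0. Points are libraries, with ITC left of vehicle, and the bar beside them gives mean ± SD (n = 3 each). The ITC points of SYNM lie between 36.7 and 39.3 CPM, below every vehicle point.

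Levels below are CPM, counts divided by library size with TMM factors applied, and are given in the order of replicates 1, 2 and 3, with mean ± SD (n = 3 per group). Each change is the log2 ratio of ITC to vehicle ± SE, with edgeR's adjusted p over all tested genes. Of all tested genes, 39.4% were called, with 20.4% higher and 19% lower in ITC. Counts of called marker genes below stand beside these shares. The other gene lists were also chosen with earlier results known, so their shares called are descriptions too. Vehicle replicate 1 was the highest vehicle library for all 10 members and for 37.4% of all tested genes, so the members are not independent of one another. Positions are on GRCh38, as the deposited table gives them.

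GFAP encodes the filament protein most used as an astrocyte marker (chromosome 17, 44903161 to 44916937, minus strand). It had 128, 89.3 and 101 CPM in ITC, against 150, 103 and 108 CPM in vehicle. The groups overlapped, and replicate 1 was the highest library of each. The log2 change was -0.19 ± 0.19 (edgeR adjusted p = 0.454), and its adjusted p lay between 0.0709 and 0.972 over 17 alternatives, so no alternative called it. Of 10 astrocyte markers, 7 were lower, 2 were higher and 1 was not called in the same libraries, with a median log2 change of -0.86. Their summed level was 2462 to 3123 CPM in ITC and 2064 to 2486 CPM in vehicle, led by CD44 and SOX9, which were higher in ITC, and S100B, which was lower. Relative to that sum, log2 GFAP was -4.75 ± 0.24 in ITC and -4.23 ± 0.17 in vehicle, and the groups did not overlap (exact permutation test, two-sided p = 0.1, which is the minimum for groups of 3; 0.14 adjusted over 7 such ratios). Of the GFAP exon bases, 18.4% overlap CCDC103 on the opposite strand, which had 10 counts in all libraries together.

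VIM encodes vimentin, the main filament protein of astrocytes, glial progenitors and mesenchymal cells (chromosome 10, 17228259 to 17237593, plus strand). It had 2628, 2188 and 2134 CPM in ITC, against 1839, 1595 and 1450 CPM in vehicle. Every ITC library lay above every vehicle library, and VIM was more abundant than 99.9% of tested genes. It averaged 2317 ± 271 CPM in ITC and 1628 ± 197 CPM in vehicle, a log2 change of 0.51 ± 0.16 (edgeR adjusted p = 0.0238). The adjusted p was 0.0702 without ITC replicate 1, 0.0544 without ITC replicate 2, 0.133 without vehicle replicate 2 and 0.0952 without vehicle replicate 3, within a range of 0.000336 to 0.17 over the alternatives. Scaling by library size alone gave a log2 change of 0.28 (edgeR adjusted p = 0.17) while moving the median of all genes by -0.23. Relative to the median of all genes, VIM was higher in ITC by 0.52 on the log2 scale under that scaling and under TMM. Another scaling moves all genes by nearly the same amount, so these 2 values had to be close and do not show that the result is stable. Other genes overlap 1260 of the VIM exon bases (24.4%), of which VIM-AS1 on the opposite strand, the largest overlap, covers 641. VIM-AS1 had 1.68 ± 0.39 CPM in ITC and 0.693 ± 0.121 CPM in vehicle.

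LMNA encodes lamins A and C, made from 1 gene by alternative splicing and counted together here (chromosome 1, 156082573 to 156140089, plus strand). It had 760, 591 and 537 CPM in ITC, against 454, 405 and 363 CPM in vehicle, with no overlap. The averages were 629 ± 117 CPM in ITC and 407 ± 45.5 CPM in vehicle, and the log2 change was 0.63 ± 0.17 (edgeR adjusted p = 0.0105). The adjusted p was 0.0682 without vehicle replicate 2 and 0.0676 with library size alone, within a range of 0.000124 to 0.0682 over the alternatives. Relative to the median of all genes the change was 0.64 under TMM and under library size alone, which had to be close for the reason given for VIM.

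LMNB1 encodes lamin B1, the farnesylated lamin that stays attached to the inner nuclear membrane (chromosome 5, 126776623 to 126837020, plus strand). It had 21.1, 16.5 and 20.2 CPM in ITC, against 107, 90.8 and 72.2 CPM in vehicle. The highest ITC library lay far below the lowest vehicle library. The averages were 19.3 ± 2.42 CPM in ITC and 90.2 ± 17.6 CPM in vehicle, a log2 change of -2.22 ± 0.18 (edgeR adjusted p = 1.95e-07), and 3.49% of tested genes had a more negative change. All 17 alternatives kept the call. Markers of dividing cells were lower in the same libraries, in 10 of 10 members with a median log2 change of -4.20. Their summed level was 105 to 113 CPM in ITC and 694 to 798 CPM in vehicle. Its log2 ratio to the sum was -2.52 ± 0.13 in ITC and -3.06 ± 0.19 in vehicle, without overlap (exact two-sided permutation p = 0.1; 0.14 adjusted over the 7 ratios). The part of dividing cells in the LMNB1 result was not tested.

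LMNA was higher and LMNB1 lower in the same ITC libraries. Counts per kilobase gave LMNA to LMNB1 ratios of 18.7, 18.6 and 13.8 in ITC, against 2.20, 2.32 and 2.61 in vehicle. The lowest ITC ratio lay above the highest vehicle ratio, and the ratio was 7.12-fold higher in ITC. The log2 ratio was 4.08 ± 0.25 in ITC and 1.25 ± 0.13 in vehicle (SD, n = 3 each; exact permutation test, two-sided p = 0.1; 0.117 adjusted over 7 ratios between members). A ratio within a library does not depend on the scaling between libraries. LMNB2, the other B-type lamin, had 130 ± 17.5 CPM in ITC and 164 ± 31.4 CPM in vehicle and was not called (log2 change -0.33 ± 0.18, edgeR adjusted p = 0.159).

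The promoters of the lamins and of 2 cytoplasmic members are shown because these genes differed in direction in the same bulk libraries: VIM and LMNA were higher in ITC, SYNM and LMNB1 lower. The windows come from RefSeq (GRCh38.p14), which matched 6 of the 10 members, and run from 250 bases before to 50 bases after an annotated start, on the plus strand for these 4 genes. They are VIM chr10:17227991-17228290, LMNA chr1:156082323-156082622 (the first of its 3 windows), SYNM chr15:99104830-99105129, and LMNB1 chr5:126776373-126776672 and chr5:126776886-126777185. Capitals mark matches on either strand to a CCAAT box, to the GC box, whose letters are GGGCGG, or to the CHR element of cell cycle promoters. The CHR element was searched as TTTGAA.
VIM: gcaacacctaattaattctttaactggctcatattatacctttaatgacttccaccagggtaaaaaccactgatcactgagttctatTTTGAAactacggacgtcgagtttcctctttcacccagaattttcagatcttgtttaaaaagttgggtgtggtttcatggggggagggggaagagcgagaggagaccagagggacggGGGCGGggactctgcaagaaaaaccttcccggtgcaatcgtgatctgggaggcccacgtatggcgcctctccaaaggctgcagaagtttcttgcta
LMNA: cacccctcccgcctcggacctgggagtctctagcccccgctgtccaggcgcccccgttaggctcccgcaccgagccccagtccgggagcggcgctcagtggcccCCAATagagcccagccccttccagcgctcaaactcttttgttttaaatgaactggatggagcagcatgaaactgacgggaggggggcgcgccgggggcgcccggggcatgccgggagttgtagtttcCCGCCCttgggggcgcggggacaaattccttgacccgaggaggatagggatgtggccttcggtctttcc
SYNM: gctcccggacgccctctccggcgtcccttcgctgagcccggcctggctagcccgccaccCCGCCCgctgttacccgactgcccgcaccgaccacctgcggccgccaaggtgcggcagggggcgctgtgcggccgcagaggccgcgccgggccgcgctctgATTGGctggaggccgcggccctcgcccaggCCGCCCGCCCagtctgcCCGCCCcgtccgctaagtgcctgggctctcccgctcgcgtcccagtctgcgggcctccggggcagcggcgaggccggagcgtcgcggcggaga
LMNB1 first window: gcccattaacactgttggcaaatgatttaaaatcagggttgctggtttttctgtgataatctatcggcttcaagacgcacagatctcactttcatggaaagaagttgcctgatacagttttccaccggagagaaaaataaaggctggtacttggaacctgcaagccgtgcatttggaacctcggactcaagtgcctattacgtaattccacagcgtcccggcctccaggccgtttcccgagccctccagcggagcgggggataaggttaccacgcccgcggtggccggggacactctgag
LMNB1 second window: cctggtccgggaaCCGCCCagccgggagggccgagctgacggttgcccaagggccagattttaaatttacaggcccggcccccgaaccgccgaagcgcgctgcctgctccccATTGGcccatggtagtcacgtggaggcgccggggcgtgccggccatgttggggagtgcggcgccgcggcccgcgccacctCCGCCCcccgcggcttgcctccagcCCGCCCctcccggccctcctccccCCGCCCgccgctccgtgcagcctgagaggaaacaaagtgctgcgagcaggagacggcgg

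A GC box was found in 1 place in the VIM window and in 1 place in the LMNA window, in 4 places in SYNM and in 4 places in the second LMNB1 window. The other LMNA windows held 1 and 2, and the windows of NES and INA, which are not shown, held 4 each. GC boxes occur in 45% of all 35116 RefSeq windows of this length. The first LMNB1 window held none of the motifs searched. A CCAAT box, present in 34.6% of all windows, was found once each in LMNA, SYNM and the second LMNB1 window. The CHR letters, present in 15.2% of all windows, occurred in VIM. No match to a TATA box (TATAAA), an AP-1 element (TGANTCA), an E2F element (TTTNGCGC) or to the kappa-B element was found on either strand in these windows. Those motifs occur in 11.5%, 7.71%, 1.79% and 1.91% of all windows. The GC content was 48% for VIM, 66.3% for LMNA, 79% for SYNM and 52% and 73.7% for the LMNB1 windows, against a median of 58.7%. These matches describe the letters of the windows and are not measured binding sites.

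**Figure D2:**
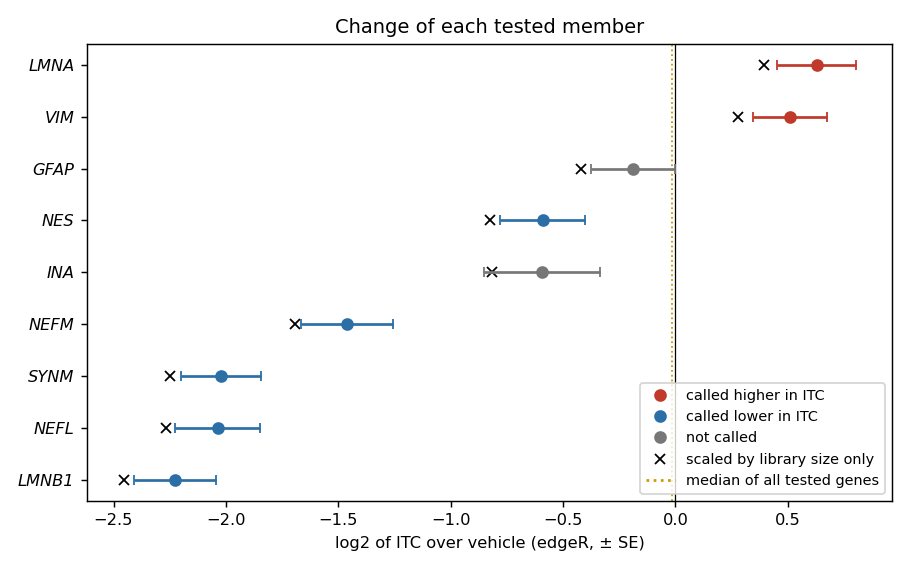
Log2 of ITC over vehicle for the 9 tested members, with SE from edgeR and colour by call, on an axis where 0 is no difference. Crosses give the change when libraries are scaled by size alone, which puts each cross left of its point; VIM is then at 0.28 and LMNA at 0.39, both not called.

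NES encodes nestin, a large filament protein of neural progenitors that is also made by reactive astrocytes (chromosome 1, 156668763 to 156677397, minus strand). It had 739, 711 and 542 CPM in ITC, against 1139, 1088 and 773 CPM in vehicle. The groups did not overlap, but the highest ITC library and the lowest vehicle library lay close together. The log2 change was -0.59 ± 0.19 (edgeR adjusted p = 0.0225). The call was lost without ITC replicate 2 (adjusted p = 0.0575), ITC replicate 3 (0.105), vehicle replicate 1 (0.0551) or vehicle replicate 2 (0.0805), within a range of 0.000151 to 0.105 over the alternatives in edgeR, DESeq2 and limma. Of 8 tested neural progenitor markers, 7 were lower and 1 was higher in the same libraries. Their summed level was 517 to 563 CPM in ITC and 954 to 955 CPM in vehicle, with SOX2, FABP7 and MSI1 highest. The log2 ratio of NES to that sum was 0.29 ± 0.25 in ITC and 0.05 ± 0.31 in vehicle, and the groups overlapped (exact two-sided permutation p = 0.4, also 0.4 adjusted). The part of progenitors in the NES result was not tested.

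SYNM encodes synemin, which cannot form filaments alone and binds vimentin and desmin filaments to anchoring proteins (chromosome 15, 99098217 to 99135593, plus strand). It had 36.7, 39.3 and 37.4 CPM in ITC, against 189, 148 and 123 CPM in vehicle. The ITC libraries were nearly equal, while the vehicle libraries were spread. The averages were 37.8 ± 1.32 CPM in ITC and 154 ± 33.4 CPM in vehicle, a log2 change of -2.02 ± 0.18 (edgeR adjusted p = 4.19e-07), called under all 17 alternatives. Other genes overlap 27.7% of the SYNM exon bases. The largest of these, an antisense gene, had 16 counts in all libraries together.

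DES encodes desmin, the filament protein of muscle (chromosome 2, 219418377 to 219426739, plus strand). It had 6, 4 and 2 counts in ITC, against 22, 4 and 27 counts in vehicle. The groups overlapped because vehicle replicate 2 was as low as the ITC libraries. The ratio of ITC over vehicle was 0.321 (95% exact interval 0.156 to 0.609, counting error only), and the gene did not pass the filter. With no filter, edgeR gave a log2 change of -1.57 ± 0.76 (adjusted p = 0.136). Its adjusted p lay between 0.0469 and 0.247 over the settings that could test it. The lowest value, a call, came from leaving out vehicle replicate 2, the lowest vehicle library (log2 change -1.99, edgeR adjusted p = 0.0469). DES then passed the filter only through vehicle replicates 1 and 3, the libraries where it was high. That call therefore does not show that DES was lower in ITC. Markers of mesenchymal and muscle cells had a summed level of 706 to 912 CPM in ITC and 711 to 800 CPM in vehicle, led by COL1A1, TAGLN and COL1A2. Of the 11 that could be tested, 4 were higher and 3 were lower.

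NEFL encodes the light neurofilament protein, the core of axonal neurofilaments (chromosome 8, 24950955 to 24957110, minus strand). It had 60.5, 75.9 and 52.3 CPM in ITC, against 298, 264 and 213 CPM in vehicle. Every ITC library was far below every vehicle library. The averages were 62.9 ± 12 CPM in ITC and 258 ± 43 CPM in vehicle, a log2 change of -2.04 ± 0.19 (edgeR adjusted p = 7.18e-07). In bulk RNA, fewer cells of a type and less RNA per cell cannot be told apart.

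NEFM, the medium neurofilament protein, lies 31.9 kb from NEFL with no protein-coding gene of the table between them (chromosome 8, 24913012 to 24919098, plus strand). It had 10.1, 11.3 and 7.26 CPM in ITC, against 31.1, 26 and 21.9 CPM in vehicle, without overlap. The log2 change was -1.46 ± 0.20 (edgeR adjusted p = 4.74e-05). An antisense gene overlaps 38.9% of its exon bases. The antisense gene had 0.21 ± 0.167 CPM in ITC and 0.846 ± 0.197 CPM in vehicle, and reads of an antisense pair cannot be told apart where the use of strand in counting is not given. The calls of NEFL and NEFM held under all 17 alternatives.

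INA encodes alpha-internexin, a filament protein of developing neurons (chromosome 10, 103277163 to 103290351, plus strand). It had 3.82, 6.89 and 4.49 CPM in ITC, against 8.49, 8.28 and 6.25 CPM in vehicle. ITC replicate 2 lay above vehicle replicate 3, so the groups overlapped. The log2 change of -0.59 ± 0.26 was not called (edgeR adjusted p = 0.0835). It was called under 5 of the 17 alternatives. These include upper quartile scaling (edgeR adjusted p = 0.0369), library size alone (0.0229) and a block on replicate number (0.0275). The adjusted p was 0.0303 without ITC replicate 2 and 0.0245 without vehicle replicate 3, within a range of 0.0229 to 0.262 over the alternatives.

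The ratios of NEFL to the other neuronal filament genes were lower in the ITC libraries. Per kilobase, NEFL over NEFM was 6.04, 6.81 and 7.29 in ITC, against 9.70, 10.2 and 9.81 in vehicle. NEFL over INA was 11.8, 8.23 and 8.70 in ITC, against 26.2, 23.8 and 25.4 in vehicle. Neither ratio overlapped between the groups (exact two-sided permutation p = 0.1 for each, 0.117 adjusted over the 7 ratios). Of 11 tested neuron markers, 5 were lower, 1 was higher and 5 were not called. MAP2 (log2 change -1.56 ± 0.17) and DCX (-2.21 ± 0.26) were lower, and GAP43, which glia can also express, was higher (1.79 ± 0.16). The summed neuron markers had 1358 to 1568 CPM in ITC and 1184 to 1382 CPM in vehicle. Without GAP43, a sum chosen after the values were seen, they had 275 to 375 CPM in ITC and 817 to 1062 CPM in vehicle. Log2 ratios to the full sum, GAP43 included, differed between ITC and vehicle by -2.26 for NEFL, -1.69 for NEFM and -0.85 for INA. The groups did not overlap in any of them (exact two-sided permutation p = 0.1 for each, 0.14 adjusted over 7 ratios to marker sums). The part of neurons in the neurofilament results was not tested.

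**Figure D3:**
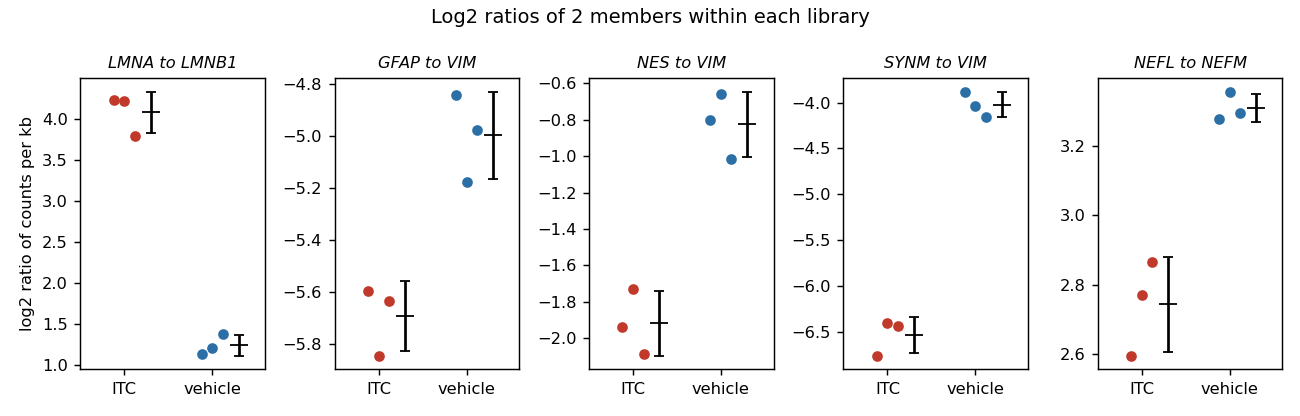
Log2 ratio of 2 members within each library, from counts per kilobase of the deposited gene length, with ITC left of vehicle and mean ± SD beside the points (n = 3 each). In each of the 5 panels the groups do not overlap; LMNA to LMNB1 is higher in ITC and the other ratios are lower.

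The ratios of GFAP, NES and SYNM to VIM were lower in each ITC library than in any vehicle library. GFAP to VIM was 0.0207, 0.0174 and 0.0201 in ITC, against 0.0348, 0.0276 and 0.0318 in vehicle. NES to VIM was 0.261, 0.302 and 0.236 in ITC, against 0.575, 0.633 and 0.495 in vehicle. SYNM to VIM was 0.00922, 0.0118 and 0.0115 in ITC, against 0.0679, 0.0611 and 0.0562 in vehicle. The log2 differences were -0.69 for GFAP, -1.09 for NES and -2.51 for SYNM (exact two-sided permutation p = 0.1 for each; 0.117 adjusted). LMNA to VIM was 0.214, 0.200 and 0.186 in ITC, against 0.182, 0.188 and 0.185 in vehicle. These groups overlapped, and the log2 difference was 0.11 (exact two-sided permutation p = 0.2, also 0.2 adjusted), which does not show that the ratio was equal. Of the 7 ratios, SYNM to VIM, LMNA to VIM, NEFL to NEFM and NEFL to INA were added after the values were seen.

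Levels of different genes were compared as FPKM, in which the authors divided counts by gene length and a library size other than the total count. The size implied by the values was below the total count in every ITC library and above it in every vehicle library. It was 15704863 against 18623454 in ITC replicate 1, and 32350507 against 29941685 in vehicle replicate 3. Summed over the 10 members, FPKM was 630 to 829 in ITC and 572 to 806 in vehicle, so the groups overlapped. The parts of that sum held by single members overlapped between the groups for GFAP and DES and did not overlap for the other members. Parts of 1 sum depend on each other, so a larger part of VIM makes the other parts smaller. INA shows this limit: its part did not overlap, while its CPM overlapped and it was not called. The parts have no background over all genes and are given as a description. VIM held 64.6% ± 1.89 of it in ITC and 46.8% ± 2.01 in vehicle, and LMNA held 12.9% ± 0.779 in ITC and 8.65% ± 0.361 in vehicle. NES held 17.1% ± 1.65 in ITC and 26.5% ± 2.16 in vehicle. NEFL held 2.10% ± 0.435 in ITC and 8.80% ± 0.194 in vehicle, and LMNB1 held 0.768% ± 0.113 in ITC and 3.65% ± 0.181 in vehicle. GFAP was a minor part, at 1.25% ± 0.142 in ITC and 1.47% ± 0.196 in vehicle.

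**Figure D4:**
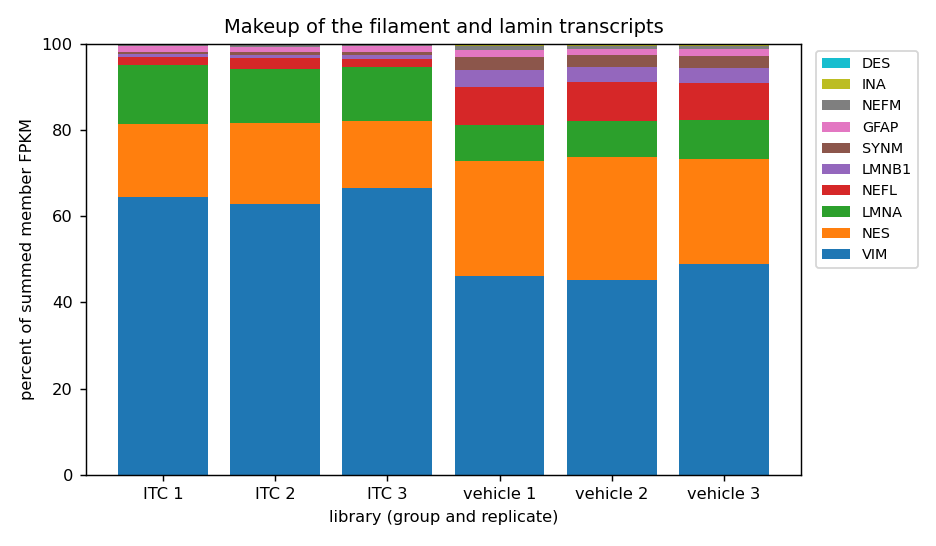
Percent of the summed FPKM of the 10 members that each member holds, as stacked bars for each library from 0 to 100, with the ITC libraries left of the vehicle libraries. VIM and LMNA take a larger part in the ITC bars, and NES, NEFL, LMNB1 and SYNM a larger part in the vehicle bars.

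In ITC the order by mean FPKM was VIM (463 ± 62.2), NES (123 ± 21.6), LMNA (93 ± 18.9), NEFL (15 ± 2.9), GFAP (9.03 ± 1.81), LMNB1 (5.47 ± 0.723), SYNM (4.98 ± 0.163), NEFM (2.25 ± 0.506), INA (1.61 ± 0.506) and DES (0.0987 ± 0.0535). NES and LMNA, LMNB1 and SYNM, and NEFM and INA overlapped in that order. In vehicle the order was VIM (323 ± 46.2), NES (184 ± 40), NEFL (61.1 ± 11.5), LMNA (59.7 ± 7.98), LMNB1 (25.4 ± 5.51), SYNM (20.1 ± 4.81), GFAP (10.2 ± 2.39), NEFM (6.17 ± 1.21), INA (2.43 ± 0.437) and DES (0.286 ± 0.179). NEFL and LMNA, and LMNB1 and SYNM, overlapped there. GFAP stood above LMNB1 and SYNM in ITC and below both in vehicle, while GFAP itself did not pass the test and both others were lower in ITC. The deposited length joins all exons of all isoforms and is 12110 bases for GFAP, 1.85 times its principal transcript in GENCODE 29, against 2.42 times for VIM and 2.19 times for LMNA. With principal transcript lengths, LMNA stood above NES and GFAP above NEFL in ITC. In vehicle LMNA then stood above NEFL, at 128 ± 14.3 against 63.3 ± 10.5 CPM per kilobase. GFAP was still below SYNM in vehicle but close to it, at 18.5 ± 3.96 against 20.8 ± 4.52 CPM per kilobase. The order of close neighbours thus depends on the length used.

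Beyond the members, 14 other intermediate filament genes were tested, and 3 were higher, 1 was lower and 10 were not called. The share called was 28.6%, against 39.4% of all tested genes, and the median log2 change was 0.07. Upper quartile scaling called 3 higher and 2 lower, and library size alone called 2 higher and 2 lower. The called genes were IFFO2 (1.20 ± 0.18), syncoilin, SYNC (0.67 ± 0.15), the keratin KRT10 (0.65 ± 0.17) and IFFO1 (-0.51 ± 0.18). The most abundant that were not called were LMNB2 and KRT8, a keratin of simple epithelia with many processed copies in the genome (0.14 ± 0.26). The lens filament gene BFSP2, the keratin KRT17 and LMNTD1 were too low to be tested.

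Plakins and related proteins link filaments to junctions and to other fibres. Of 15 tested plakins and other linkers, 10 were higher, 1 was lower and 4 were not called. The share called was 73.3%, against 39.4% of all tested genes, and the median log2 change was 0.70. Junction plakoglobin, JUP, had 66.0 ± 11.6 CPM in ITC and 17.5 ± 4.38 CPM in vehicle (log2 change 1.91 ± 0.20). The desmosomal cadherin DSG2 (1.26 ± 0.16) and desmoplakin, DSP (1.09 ± 0.15), which ties filaments to desmosomes, were also higher. The hemidesmosome integrin ITGB4 was lower (-1.04 ± 0.23). Plectin, PLEC, the broadest of the filament linkers, was the most abundant that was not called, at 564 ± 78.0 CPM in ITC and 643 ± 79.1 CPM in vehicle. DTNA was not called either (0.15 ± 0.15).

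Of 17 tested lamin partners of the nuclear envelope, 3 were higher, 3 were lower and 11 were not called. The share called was 35.3%, near the 39.4% of all tested genes, and the median log2 change was 0.13. With upper quartile scaling 1 was higher and 5 were lower, and with library size alone 1 was higher and 6 were lower. TMPO, which encodes the lamina-associated LAP2 proteins, had 21.7 ± 1.55 CPM in ITC and 93.0 ± 4.52 CPM in vehicle (log2 change -2.10 ± 0.15, edgeR adjusted p = 4.61e-08). SUN2, which spans the inner membrane and bridges lamins to the cytoskeleton, was higher, at 164 ± 18.4 CPM in ITC and 73.9 ± 7.64 CPM in vehicle (1.15 ± 0.16). Its partners SYNE3 (-0.87 ± 0.17) and SYNE2 (-0.64 ± 0.20) were lower. TOR1A (0.48 ± 0.14) and LEMD3 (0.47 ± 0.16) were higher, and SUN1 was not called (-0.15 ± 0.15). Of 6 enzymes and binding proteins of prelamin, NARF was higher (0.98 ± 0.15) and 5 were not called. The share called was 16.7%, against 39.4% of all tested genes. With upper quartile scaling or library size alone, 1 was higher and 1 lower. The 5 not called under TMM include ZMPSTE24, the protease that releases mature lamin A (0.18 ± 0.16), and the methyltransferase ICMT (-0.37 ± 0.15).

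Among 21 enzymes and chaperones that act on filaments, 7 were higher, 7 were lower and 7 were not called. The share called was 66.7%, against 39.4% of all tested genes, and the median log2 change was -0.04. With library size alone 4 were higher and 8 lower. The mitotic kinases that phosphorylate vimentin or lamins were lower. CDK1 had 3.48 ± 1.49 CPM in ITC and 90.6 ± 13.8 CPM in vehicle (-4.70 ± 0.26), AURKB changed by -5.72 ± 0.31 and PLK1 by -3.65 ± 0.28. The small heat shock protein CRYAB, which binds GFAP and desmin filaments, had 414 ± 82.0 CPM in ITC and 90.9 ± 4.62 CPM in vehicle (2.19 ± 0.18). The protease calpain 1 was also higher (CAPN1, 0.86 ± 0.19). CAPN2 (-0.21 ± 0.15) and the chaperone HSPB1 (-0.06 ± 0.16) were not called.

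**Figure D5:**
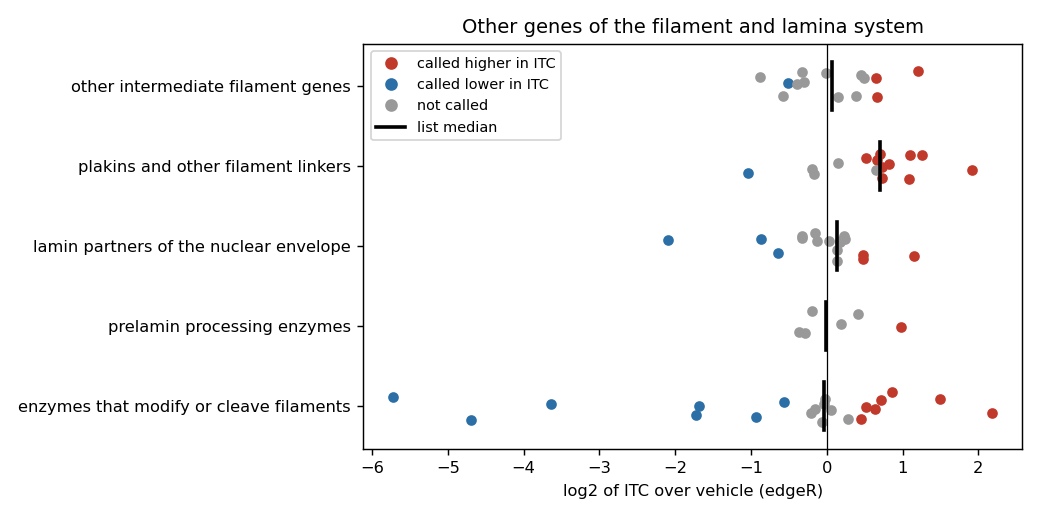
Log2 of ITC over vehicle for the tested genes of 5 lists of the filament and lamina system, with 1 point a gene, colour by edgeR call and a bar at each list's median. Plakins and linkers lie mostly to the right of 0 with a median of 0.70, while the enzymes spread from AURKB at -5.72 to CRYAB at 2.19 around a median of -0.04.

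Among 10335 genes with at least 10 CPM on average, the pattern of GFAP over the 6 libraries was most closely matched by ACD, GRK6 and LDOC1. Their centred log2 CPM differed from that of GFAP by a root mean square of 0.103, 0.112 and 0.118. The pattern of LMNB1 was most closely matched by the carbonic anhydrase gene CA14, the angiotensinogen gene AGT and the protocadherin gene PCDH10, with differences of 0.106, 0.107 and 0.123. These are descriptions of 6 libraries in which the treatment sets much of the pattern. In the authors' deposited table, log2 changes of vehicle over ITC were -0.51 for VIM (adjusted p = 0.00928 by DESeq2), -0.63 for LMNA and 2.23 for LMNB1, and INA was not called there (adjusted p = 0.127).

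Oligodendrocyte lineage markers had a summed level of 90.7 to 102 CPM in ITC and 299 to 363 CPM in vehicle. Of the 6 that could be tested, 3 were higher, among them CSPG4 and MBP, and 3 were lower. Of 7 microglia markers, CSF1R, CX3CR1 and TMEM119 among them, none could be tested, and their summed level was 0.555 to 1.18 CPM in ITC and 0.433 to 0.681 CPM in vehicle.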

How the data were processed

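Groups and replicate numbers come from the sample titles. The authors deposited raw counts per gene, per the file headers and their whole-number values, and these were used for all tests. The deposited signal is the authors' counts divided by a factor constant within each library. The authors' FPKM divides by the gene length that the table lists, checked on the values. In the authors' table the log2 fold changes and p-values compare vehicle over ITC. GRCh38 and DESeq2 are named in the submitters' processing notes. How reads were aligned, and whether counting used strand, is not given in the sources used here.

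All genes that passed the count filter entered edgeR 4.0.16 under R 4.3.3 (filterByExpr, TMM, quasi-likelihood, no covariates), with Benjamini-Hochberg adjustment at 0.05. The SE is the log2 change divided by the square root of F. The pipeline was tested on simulated data. DESeq2 1.42.0, limma 3.58.1, other scalings and filters, a replicate block and leaving out each library were alternatives. Ratios used exact permutation tests (scipy 1.17.1). Exon overlaps used GENCODE 29.

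The members and gene lists were chosen with earlier results of these data known. Named genes are all members, from each filament or lamina list up to 3 called per direction, by smallest p, and up to 2 that were not called, by highest CPM, and the 3 most abundant genes of each marker list. For GFAP and LMNB1 they include the 3 genes with the closest pattern. Some genes that this rule names are not reported here. Intervals cover counting error only.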

Additional observations from a re-analysis of the deposited data

How the results depend on the processing

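Of the 7 called members, SYNM, LMNB1, NEFL and NEFM were called under each of the 17 alternatives, and VIM, LMNA and NES were not. The number of members called was 7, and 4 at an adjusted p under 0.01. Leaving out 1 library gave 5 to 7. VIM also lost its call with upper quartile scaling (edgeR adjusted p = 0.0778) and on FPKM (limma, 0.0566 and 0.0641 with pseudocounts of 1 and 0.1). NES lost its call on FPKM (limma, 0.057 and 0.0568). Over all genes 6599 were called, 3423 higher and 3176 lower in ITC, and with library size alone 2282 were higher and 4804 lower.

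The number of other intermediate filament genes called was 4, and 7 with the replicate block. The number of lamin partners called was 6, and 3 at an adjusted p under 0.01. The number of prelamin enzymes called was 1, and 2 with upper quartile scaling, with library size alone and with the replicate block; leaving out 1 library gave 1 to 2.

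Whether same-numbered libraries share a capsule batch is not known, and the main fits did not use replicate number. Deviations from the group means correlated at 0.268, 0.00733 and 0.384 for same-numbered libraries of replicates 1, 2 and 3. Differently numbered libraries gave -0.338 to 0.0697. Replicates 1 and 3 thus lay above that range and replicate 2 within it, so these values neither establish a pairing nor exclude it. With the replicate block 8416 genes and 8 members were called, against 6599 and 7 without it. INA was the member added (edgeR adjusted p = 0.0275). For the ratios between members a block of 3 balanced pairs leaves the mean difference as it is by construction, and its exact sign-flip p cannot go below 0.25, so it shows nothing of their stability. Depth limits DES, where 3 counts correspond to 0.167 to 0.182 CPM in ITC and 0.0929 to 0.157 CPM in vehicle, with TMM factors applied.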
